A study of Mus musculus with 27 samples.

Results

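Cells of wild-type (WT) mouse foetal livers were compared after 24 h of culture with cells at 0 h of culture, across all genes. The comparison held 5 of the 27 arrays of the series, chosen by their titles: 3 arrays of WT at 0 h and 2 arrays of WT at 24 h. The embryos were at stage E14.5. The growth medium was Iscove's medium with serum at 30%, albumin at 1%, glutamine at 2 mM, monothioglycerol and antibiotics, the temperature was 37 C, and the labels call all samples untreated. The labels name neither erythropoietin nor any other cytokine, and no sort or gate of the cells. For comparison, the same step from 0 h to 24 h was examined at the same stage and in the same medium, in embryos that lacked Rb1 (Rb1KO, 5 and 4 arrays) or p107, the product of Rbl1 (p107KO, 2 and 2 arrays). Which part of either gene was altered is not stated in the labels. Nothing in the labels tells whether the arrays of 1 group stand for different embryos, and the p-values therefore reflect only how these samples spread, which may be a technical spread.

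At this stage the foetal liver is the main organ of red cell production. Erythroblasts mature there around a central macrophage, in an erythroblastic island, among hepatoblasts that secrete plasma proteins, sinusoidal endothelium, stromal cells that make collagen, and the forerunners of granulocytes, mast cells and platelets. As erythroblasts mature they raise heme and globin synthesis, turn down the receptors for stem cell factor and erythropoietin, clear organelles and expel the nucleus. Cells put into culture leave their neighbours and meet new levels of oxygen, amino acids and serum, and several well-known programmes respond to such shifts: p53 acts on genes of cell cycle arrest, ATF4 on genes of amino acid supply and stress, NRF2 on antioxidant genes, NF-kB on inflammatory genes and interferons on antiviral genes.

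Each array gave a signal intensity per gene, and changes were measured on log2(signal + 32), where the added 32 pulls folds of dim genes toward 0. Of 18193 genes, the 10916 with the highest mean over all arrays were tested with limma, and a gene counted as changed at a Benjamini-Hochberg adjusted p under 0.05. The 5 arrays had median signals between 81.6 and 107.4 over all probe sets. Pearson correlations across genes ran from 0.980 to 0.983 among the 0 h arrays, were 0.973 between the 24 h arrays and lay between 0.811 and 0.843 across the times. The median gene differed by 0.172 to 0.203 on the log2 scale between arrays of 0 h, by 0.234 between those of 24 h and by 0.482 to 0.540 between the times. The targeted genes were lower in the groups labelled as lacking them: Rb1 gave a median signal of 6579 in WT and 2047 in Rb1KO at 0 h, and Rbl1 gave 1571 in WT and 112.9 in p107KO. At 24 h the median of Rb1 was 9449 in WT and 3859 in Rb1KO, so part of the Rb1 signal remained at both times. Rbl1 then gave 1428 in WT and 146.65 in p107KO. Liver and erythroid markers were present in every WT array at 0 h, where Alb lay between 33622.5 and 41502.3 and Klf1 between 18063.7 and 22302.4.

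Over the 24 h, 4156 genes changed (38.1% of those tested), of which 1669 rose (15.3%) and 2487 fell (22.8%). At 2-fold or more the counts were 722 higher (6.61%) and 1545 lower (14.2%), and at 8-fold or more they were 44 higher (0.403%) and 281 lower (2.57%). The 0 h and 24 h arrays did not overlap for 7203 genes (66% of those tested). The balance between rises and falls depended on how arrays were scaled: 40.2% of the calls were rises as the values were deposited, 50.7% after quantile normalization (1973 rises and 1922 falls) and 61.9% with each array centred on its median (2787 and 1716). The median change of all genes moved in the same way, from -0.09 to 0.05 and 0.17 on the log2 scale. Small changes of a list are therefore given below with their value under these scalings where the sign turned. The number of calls was 3021 without replicate 1 of 24 h (1130 rises and 1891 falls) and 2911 without replicate 2 (1096 and 1815).

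**Figure D1:**
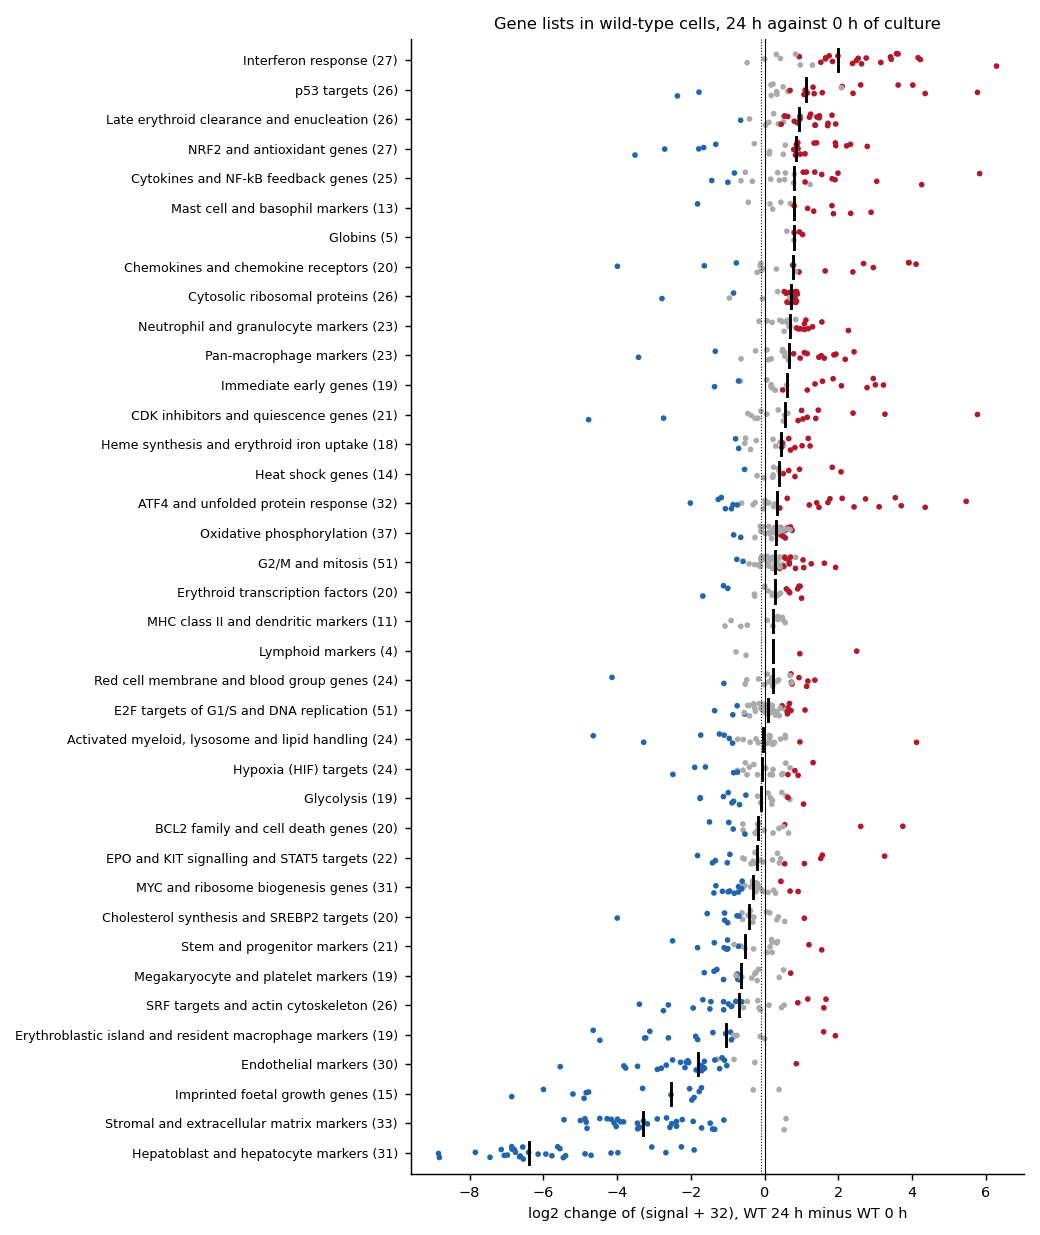
Log2 change of (signal + 32) from WT 0 h to WT 24 h for every tested member of 38 gene lists, with list names and member counts on the vertical axis. Red and blue points passed the threshold as higher and lower, grey points did not, black bars are list medians and the dotted line is the median of all genes; interferon and p53 genes lie at the high end and hepatocyte, stromal, imprinted and endothelial genes at the low end.

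Most of the 20 largest falls belonged to the liver's own parenchyma, and many of the largest rises to interferon, inflammatory and stress genes. Of the 20 largest falls among genes that were above the median level, 15 were members of a list of hepatoblast and hepatocyte markers, and of the 281 falls of 8-fold or more, 28 were hepatocyte, 18 stromal and 4 endothelial markers. No more than 67 of these 281 were in any of the 38 lists, so most of the large falls are not assigned here. Of the 44 rises of 8-fold or more, 28 were in any list, and 24 belonged to lists of stress, interferon and inflammatory genes. The lists together held 848 of the 10916 genes tested. These lists were drawn up with earlier results of these data known, so the counts describe the change and are no independent evidence of its direction.

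Promoter sequences are shown for the groups of genes that led the changes, because each group is known for a factor with a recognised DNA motif. They are RefSeq sequences of assembly GRCm38.p6, in the 250 bases before and 50 after each start site, and the stretches below lie before the start site, on the strand of the gene, with the letters of the motif in capitals. Of the genes tested, 8922 had such a window. The motif of interferon-stimulated genes, GAAA followed by any 2 bases and again by GAAA, was searched on both strands, as were the others. It was found in 11 of 20 interferon response genes with a window (55%) and in 3.64% of all genes tested. Of these interferon genes, 8 of 15 that rose and 3 of 5 others held it. The capitals in Ifit1 and Rsad2 read this motif on the opposite strand, and Ifit1 holds it more than once.
Ifit1, chr19:34640755-34640824, plus strand: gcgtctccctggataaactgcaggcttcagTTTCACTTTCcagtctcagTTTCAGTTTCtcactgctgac
Rsad2, chr12:26456533-26456602, minus strand: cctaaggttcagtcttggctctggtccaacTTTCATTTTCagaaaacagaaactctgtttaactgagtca

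The composite element bound by ATF4 and its partners, searched as TGATGNAA, was found in 6 of 29 ATF4 and unfolded protein response genes (20.7%) against 2.66% of all genes tested. The antioxidant element, searched as TGACNNNGC, was found in 9 of 23 NRF2 genes (39.1%) against 16.9%, so its letters are common in promoters at large. The ATF4 letters were in 4 of 14 risen members of their list and 2 of 15 others, the antioxidant letters in 5 of 15 and 4 of 8. Both motifs are shown in the 2 risen members with the smallest adjusted p whose match lay before the start site. The capitals read the motif on the opposite strand.
Chac1, chr2:119351019-119351086, plus strand: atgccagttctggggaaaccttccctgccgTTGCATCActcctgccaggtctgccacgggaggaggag
Nupr1, chr7:126625543-126625610, minus strand: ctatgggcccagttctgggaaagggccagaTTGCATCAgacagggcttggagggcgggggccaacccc
Gclm, chr3:122245393-122245461, plus strand: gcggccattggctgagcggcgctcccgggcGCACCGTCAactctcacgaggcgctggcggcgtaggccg
Sod1, chr16:90220676-90220744, plus strand: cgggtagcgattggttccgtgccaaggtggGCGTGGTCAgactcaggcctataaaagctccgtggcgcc

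The kappaB letters, GGGA, any base, TT, any base and CC, were found in 4 of 22 cytokine and NF-kB feedback genes (18.2%) against 1.52% of genes tested, and among the risen members in Nfkbia alone (1 of 10). The letters of HNF1, a regulator of hepatocyte genes (GTTAAT, any base and ATT), were found in 1 of 26 hepatocyte markers, Afp, against 0.291% of genes tested. These matches describe the sequence only; no binding was measured.
Nfkbia, chr12:55492648-55492706, minus strand, match on the opposite strand: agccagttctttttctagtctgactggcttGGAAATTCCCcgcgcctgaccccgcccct
Afp, chr5:90490579-90490648, plus strand, match on the gene's strand: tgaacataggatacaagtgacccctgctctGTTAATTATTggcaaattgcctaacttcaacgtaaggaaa

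Plasma protein genes of the hepatocyte had the lowest median of the 38 lists. All 31 hepatoblast and hepatocyte markers tested fell, with a median change of -6.40 on the log2 scale, and their summed signal went from between 394240 and 465421 at 0 h to 9964 and 10382 at 24 h, 2.36% of its 0 h mean. Apoa1, the main protein of high-density lipoprotein, gave 33403.6, 31940.5 and 38805.1 at 0 h and 97.4 and 13.4 at 24 h. That is 452-fold lower (log2 -8.82 ± 0.59 SE, limma adjusted p = 1.08e-10). Serpina6, the corticosteroid carrier of plasma, went from 30554, 25993.2 and 28953.9 to 57.1 and 11.1, the largest fall of all genes tested on the log2(signal + 32) scale (log2 -8.84 ± 0.43 SE, limma adjusted p = 1.07e-12). In both genes the 24 h signals were so low that the fold is set in part by the added 32. The fibrinogen chains Fga, Fgb and Fgg changed by -7.14, -6.54 and -7.84 on the log2 scale, and the thyroid hormone carrier Ttr fell by 6.76.

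Albumin and alpha-fetoprotein, the most familiar products of the foetal hepatocyte, fell less. Alb gave 33622.5, 33717.4 and 41502.3 at 0 h and 2279.9 and 2241.7 at 24 h, 15.8-fold lower (log2 -3.98 ± 0.56 SE, limma adjusted p = 7.15e-06). Afp gave 34359.5, 32933.6 and 39540.7 and then 4317.4 and 4143.4, 8.34-fold lower (log2 -3.06 ± 0.46 SE, limma adjusted p = 1.57e-05). Hnf4a, a transcription factor that maintains hepatocyte identity, fell from 1893.5, 1483.7 and 1556.2 to 123 and 23.7 (log2 -4.17 ± 0.43 SE, limma adjusted p = 7.55e-08). Dlk1, a surface protein of hepatoblasts, fell from between 15709 and 18533.5 to 121.5 and 116.8, 116-fold. In bulk RNA of this kind, fewer cells of a type and less RNA per cell cannot be told apart, here and for the other cell types below. Among the largest falls outside that list were the apolipoprotein Apom, the growth factor binding protein Igfbp1, plasminogen Plg, the coagulation inhibitor Serpind1 and the protease inhibitor Pzp, with changes between -7.68 and -6.48, all of them products of the liver.

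Stromal genes fell next, 31 of 33 tested, with a median of -3.29, and none rose. Col3a1, a fibrillar collagen, gave 5069.4, 5335.1 and 3518.2 at 0 h and 88.7 and 60.8 at 24 h, 43.4-fold lower (log2 -5.44 ± 0.36 SE, limma adjusted p = 9.96e-11). Fibronectin, Fn1, fell 31.9-fold and the small proteoglycan Dcn 28.6-fold. Pdgfrb, a receptor of pericytes and stellate cells, fell from between 618.2 and 798.6 to 50.9 and 18.9. Cxcl12, the stromal chemokine that holds blood progenitors in their niche, fell from 1610.3, 1292.7 and 981.1 to 83.2 and 26.1 (log2 -3.99 ± 0.50 SE, limma adjusted p = 1.51e-06). The exceptions included vimentin, Vim, an intermediate filament that blood cells also make, at 2783.2, 2816.9 and 2197.5 against 4594.2 and 3051.8 (limma adjusted p = 0.154).

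Of the endothelial markers 26 of 30 fell and 1 rose, the Fc receptor Fcgr2b, with a median of -1.81. Lyve1, a hyaluronan receptor of foetal sinusoids, gave 2418.4, 1923.5 and 1792.7 at 0 h and 12.4 and 12 at 24 h, 46.6-fold lower (log2 -5.54 ± 0.25 SE, limma adjusted p = 4.80e-13). The sinusoidal scavenger receptor Stab2 fell by 3.82, the receptor Flt4 of vascular growth factors by 3.77, and Kdr and Cdh5, common to all endothelium, by 2.16 and 2.12. The summed signal of the list went from between 16773.2 and 19695.6 to 4586.2 and 4624.5, 25.5% of its 0 h mean.

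Imprinted genes of foetal growth fell in 13 of 15 cases, none rose, and the median was -2.54. Igf2, the foetal insulin-like growth factor, gave 16583.9, 15928.9 and 14392.7 at 0 h and 245.3 and 184.2 at 24 h, 63.9-fold lower (log2 -6.00 ± 0.34 SE, limma adjusted p = 1.06e-11). Mest fell 36.7-fold, the zinc finger factor Plagl1 29.8-fold and the cyclin-dependent kinase inhibitor Cdkn1c 27.4-fold. The long noncoding RNA Meg3 fell less, from between 7795.8 and 9640.8 to 1772.1 and 3046.7 (log2 -1.91 ± 0.32 SE, limma adjusted p = 5.07e-05). Dlk1 and Dcn belong to this list and to the hepatocyte or the stromal list as well, and the part of those cell types in the change of the imprinted genes was not tested.

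**Figure D2:**
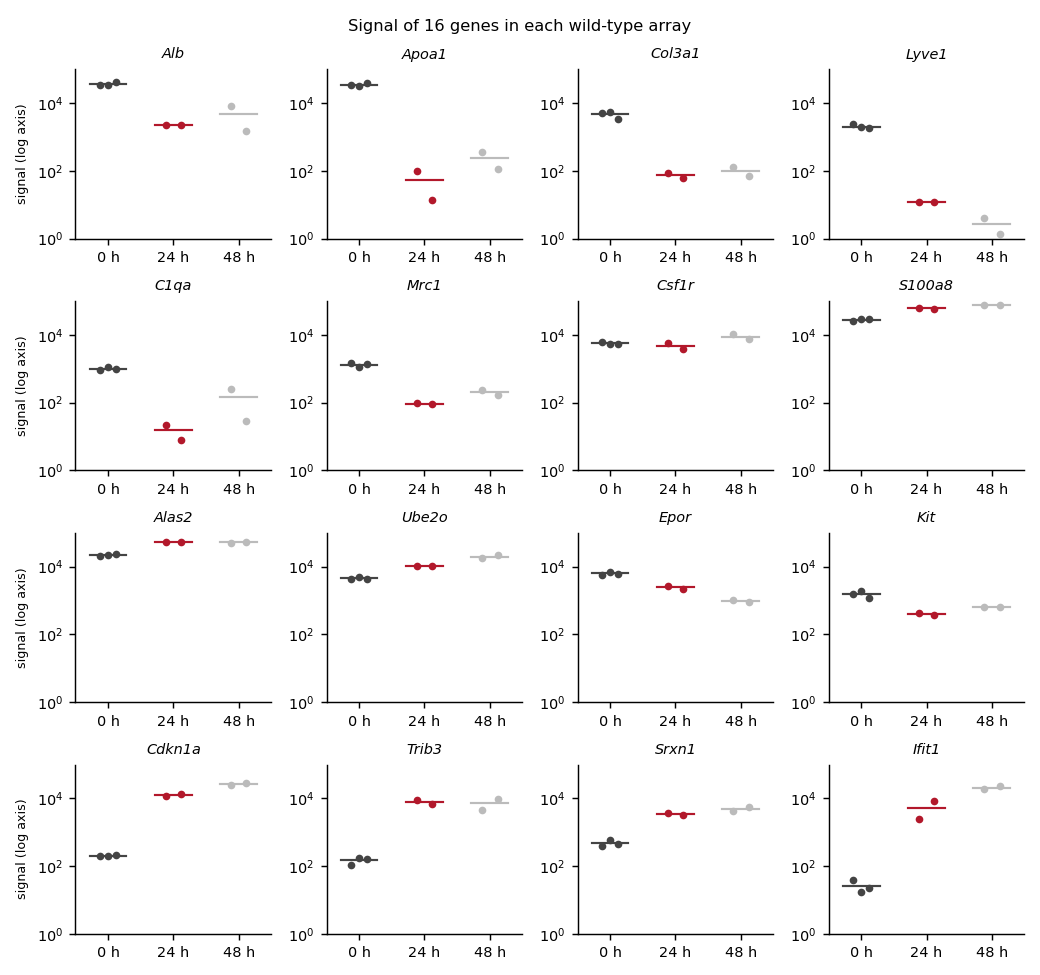
Signal of 16 genes in each WT array on a log axis, at 0 h (3 arrays, dark), 24 h (2 arrays, red) and, for reference, 48 h (2 arrays, grey), with bars at group means. Alb, Apoa1, Col3a1, Lyve1, C1qa and Mrc1 lie below all 0 h arrays at 24 h, Csf1r overlaps, and Alas2, Ube2o, Cdkn1a, Trib3, Srxn1 and Ifit1 lie above.

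Macrophage genes split into a resident and a general set. Of 19 markers of erythroblastic island and resident macrophages 12 fell and 2 rose, with a median of -1.06, whereas of 23 pan-macrophage markers 11 rose and 2 fell, with a median of 0.65. C1qa, a complement chain made by resident macrophages, gave 910, 1124.7 and 977.8 at 0 h and 22.3 and 8.1 at 24 h (log2 -4.47 ± 0.57 SE, limma adjusted p = 1.69e-06). Vcam1, the adhesion molecule by which the central macrophage holds erythroblasts, fell from 4076.7, 2884.5 and 2683.5 to 291.2 and 314.8, 9.54-fold. Timd4, which binds phosphatidylserine on expelled nuclei and dying cells, fell by 2.61 on the log2 scale, the scavenger protein Cd5l fell 25.1-fold and the iron exporter Slc40a1 2.64-fold. The mannose receptor Mrc1 stands in the general list and fell by 3.42, from between 1108.3 and 1461.2 to 97.1 and 90.5.

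Csf1r, the growth factor receptor common to all macrophages, did not change detectably. It gave 6122.9, 5210.1 and 5513.4 at 0 h and 5948.8 and 3752.6 at 24 h (log2 -0.24 ± 0.31 SE, limma adjusted p = 0.575). The groups overlapped. Adgre1, the antigen F4/80, also overlapped, at 1349.3, 1648.9 and 1185.2 against 1863.9 and 1321.7 (limma adjusted p = 0.642). Rises were seen in Cd14, the coreceptor for endotoxin (224.4, 322.6 and 306 against 1887.9 and 1027.3, log2 2.19 ± 0.45 SE, limma adjusted p = 0.000466), in the factor Cebpb by 2.43 and in the lectin Lgals3 by 1.88. Hmox1, which opens the heme ring and marks iron-recycling macrophages, rose from 988.3, 1016.7 and 693.4 to 2771.3 and 4281.3 (log2 1.92 ± 0.46 SE, limma adjusted p = 0.00219) against the direction of most of its list, as did the scavenger receptor Marco. Of the general markers 22 of 23 were higher in replicate 1 of 24 h than in replicate 2, and without replicate 1 the number of rises was 7.

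Genes of activated myeloid cells and lipid handling moved both ways, 2 up and 7 down of 24 tested (4 down without replicate 2 of 24 h or replicate 1 of 0 h), with a median of -0.05 that became 0.21 with arrays centred on their median. Gpnmb, a glycoprotein of phagocytes under lysosomal load, gave 59.1, 73.1 and 77.7 at 0 h and 2028 and 1486.2 at 24 h, 17.4-fold higher (log2 4.12 ± 0.36 SE, limma adjusted p = 7.31e-09). Apolipoprotein E, made by hepatocytes and macrophages, Apoe, fell 25.0-fold, and the cholesterol exporter Abca1 fell 9.71-fold. The risen members were Gpnmb and the protease inhibitor Cstb.

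Some granulocyte and mast cell genes rose. Of 23 neutrophil and granulocyte markers 10 rose and none fell, with a median of 0.69, and of 13 mast cell and basophil markers 7 rose and 1 fell, with a median of 0.80. Prg2 and Epx, granule proteins of eosinophils, rose by 1.30 and 0.87, and Chil3, a chitinase-like protein, rose from 243.3, 117.7 and 168.7 to 1412.4 and 629.3. Mpo and Elane, granule enzymes of the earlier promyelocyte, gave 0.48 ± 0.24 (SE) and 0.07 ± 0.38 (SE) and did not pass (limma adjusted p = 0.126 and 0.911). S100a8 rose from 25083.7, 30438.5 and 29692 to 63508.3 and 59639.8 (log2 1.12 ± 0.39 SE, limma adjusted p = 0.0286), a call that did not hold without either 24 h array. Without replicate 1 of 24 h 4 of the 23 neutrophil markers rose, where 1130 of the 10916 genes did, and without replicate 1 of 0 h 6.

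The proteases Cpa3 and Mcpt8 and the shared receptor chain of interleukin-3 and granulocyte-macrophage colony-stimulating factor were among the 7 mast cell and basophil markers that rose. Cpa3 gave 225.8, 262.4 and 237.1 at 0 h and 1004.9 and 874.5 at 24 h, 3.55-fold higher (log2 1.83 ± 0.31 SE, limma adjusted p = 7.42e-05), and the basophil protease Mcpt8 was 3.65-fold higher. Other mast cell proteases did not pass (Cma1 and Mcpt2) or lay below the filter (Mcpt1, Mcpt4 and Tpsb2), among them Mcpt4 at 10, 7.2 and 10.4 against 7 and 4.2. Csf2rb rose from 763.1, 1185.9 and 794.3 to 4302.4 and 5030.7, and its close copy Csf2rb2 rose by 2.89. As the 2 receptor genes are near-identical, their probe sets may read both. Kit, which mast cells also need, was the member that fell.

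Platelet genes leaned the other way, with 8 of 19 markers lower and 1, Plek, higher and a median of -0.65. Ppbp, a platelet chemokine, fell from 8607.4, 11514.4 and 10004.7 to 4332.4 and 2344.4 (log2 -1.64 ± 0.33 SE, limma adjusted p = 0.000383), and the glycoproteins Gp5 and Gp9 fell by 1.37 and 1.29. Pf4, another platelet chemokine, overlapped between the times (limma adjusted p = 0.573). Of these markers 18 of 19 were lower in replicate 2 of 24 h than in replicate 1, and without replicate 2 no more than 2 fell, against 5 without replicate 2 of 0 h. Under quantile normalization or with arrays centred on their median 4 fell.

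Stem and progenitor markers fell in 8 of 21 cases and rose in 2, with a median of -0.53, and 5 fell under quantile normalization. Cd34, carried by stem cells and endothelium, fell from 634.9, 925.7 and 808.2 to 437.8 and 275.6 (log2 -1.10 ± 0.22 SE, limma adjusted p = 0.000467). Tek, likewise shared with endothelium, fell 5.64-fold. Mllt3, a regulator of stem cell maintenance and erythroid fate, rose from between 2182.9 and 2937.3 to 6468.2 and 8670.4, and Ptprc, the pan-leucocyte antigen CD45, rose 2.30-fold. Lymphoid genes were near the floor: of 26 in the list 4 passed the filter, of which Il7r and the granzyme Gzmb rose, and among those below it were Cd79a, Vpreb1 and Cd3e. None of 11 genes of class II presentation and dendritic cells passed the test in either direction, among them Cd74 at 0.48 ± 0.25 (SE, limma adjusted p = 0.135). The class II chain H2-Aa and the integrin Itgax, which with Cd74 define the list, gave 0.36 and 0.56, and the costimulatory genes Cd40 and Cd86 gave -1.07 and -0.91.

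**Figure D3:**
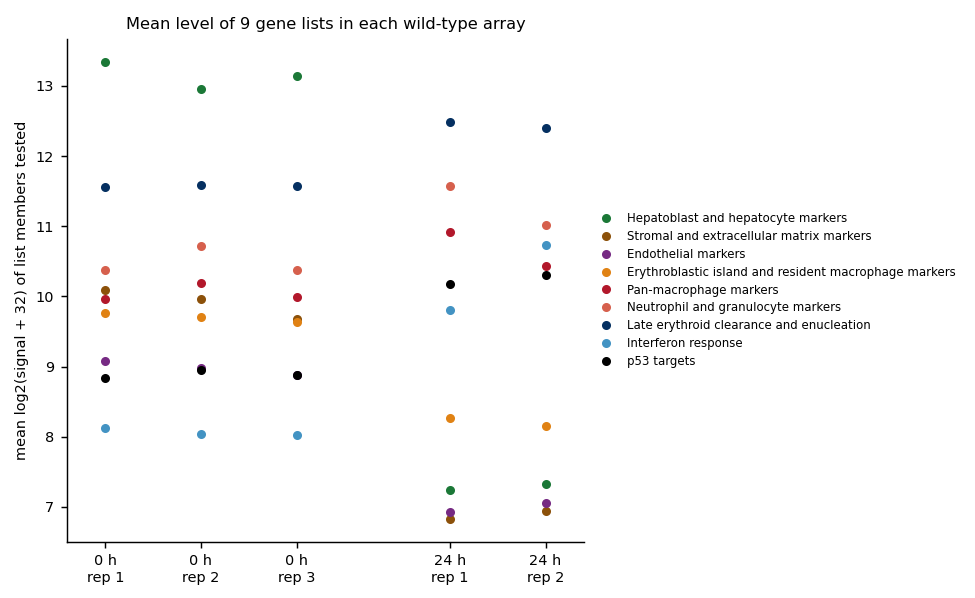
Mean log2(signal + 32) over the tested members of 9 gene lists, for each of the 3 WT arrays of 0 h and the 2 of 24 h. The times separate for all 9 lists; within 24 h, interferon genes are higher in replicate 2 (10.73 against 9.81) and pan-macrophage and neutrophil markers are higher in replicate 1.

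Erythroid genes persisted and, in part, rose. Alas2, the first enzyme of heme synthesis in red cells, gave 20933, 22335.6 and 24038 at 0 h and 53356.1 and 52160.3 at 24 h, 2.35-fold higher (log2 1.23 ± 0.28 SE, limma adjusted p = 0.00141). The transferrin receptor Tfrc rose 2.02-fold, the heme synthesis regulator Fam210b 2.27-fold and Bpgm, which makes the red cell's regulator of oxygen release, 2.57-fold. Over 18 heme and iron genes 8 rose and 2 fell, with a median of 0.44 that was -0.08 after quantile normalization, where 3 rose. Without replicate 1 of 24 h 3 rose, and without replicate 2, or replicate 1 or 2 of 0 h, 5. The falls were in Slc11a2, an iron transporter of endosomes, by 0.79 and in the mitochondrial glycine carrier Slc25a38 by 0.70.

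Of 5 globin genes tested 3 rose and none fell, with a median of 0.80. Hbb-b2, an adult beta chain, gave 10673.9, 13291.7 and 14291.7 at 0 h and 24715.4 and 27083.3 at 24 h (log2 1.03 ± 0.34 SE, limma adjusted p = 0.0213). The embryonic chain Hbb-bh1 rose by 0.80, and Hbb-y by 0.80 without passing (limma adjusted p = 0.0803). The third rise was Hba-a2, at signals far below those of the other globins tested: 185.6, 131.3 and 159 against 398.1 and 277.1. None of the 5 passed without replicate 1 of 24 h or without replicate 2, and 1 passed after quantile normalization. Globin genes resemble each other, so their probe sets may share signal. Hba-a1 lay below the filter, and Hbb-b1, Hbb-bs and Hbb-bt had no probe set with that symbol alone.

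Red cell membrane and blood group genes had 7 rises and 2 falls of 24, with a median of 0.22 that was -0.12 after quantile normalization, where 5 rose and 8 fell. Tmod1, which caps the actin filaments of the red cell skeleton, rose from 4250, 3623.7 and 3486.2 to 9251.6 and 7910.3 (log2 1.17 ± 0.22 SE, limma adjusted p = 0.000235). Slc4a1, the anion exchanger, rose by 0.75, with a change of -0.06 after quantile normalization. Another of its probe sets went the other way, with means of 3041.5 at 0 h and 1494.2 at 24 h, a change of -1.05. The water channel Aqp1 went from 6610.2, 5633.7 and 5471.2 to 331.9 and 278.5, 17.6-fold lower (log2 -4.14 ± 0.31 SE, limma adjusted p = 7.92e-10), and the urea transporter and Kidd antigen Slc14a1 fell 2.15-fold. Endothelial cells also make Aqp1, and their part in its fall was not tested.

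Among erythroid transcription factors 7 of 20 rose and 3 fell, with a median of 0.27. Nfe2 rose from 10305.3, 11373.5 and 12499.1 to 24840.9 and 19785.4, 1.95-fold (log2 0.96 ± 0.19 SE, limma adjusted p = 0.000327). Gata1, Klf1 and Tal1, the core factors of the lineage, rose by 0.59, 0.65 and 0.68, and these 3 calls did not hold after quantile normalization or without replicate 1 of 24 h. Myb, which keeps progenitors dividing, fell from 4410.6, 4068.5 and 4384.3 to 2009.1 and 2260.5 (1.996-fold lower, limma adjusted p = 0.000283). Ldb1, the bridge between Gata1 and its distant enhancers, fell 3.19-fold. Without replicate 1 of 24 h 3 factors rose, without replicate 2, without replicate 1 of 0 h or after quantile normalization 4, and with arrays centred on their median 11.

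The receptors that drive early erythroblasts fell, while targets of their signalling moved both ways. Kit gave 1581.2, 1880.3 and 1149.8 at 0 h and 440.5 and 371 at 24 h, 3.53-fold lower (log2 -1.82 ± 0.28 SE, limma adjusted p = 2.34e-05). Epor, the erythropoietin receptor, went from 5553.8, 7166.5 and 6100.2 to 2767.6 and 2184.1, 2.52-fold lower (log2 -1.33 ± 0.25 SE, limma adjusted p = 0.000226). Stat5b, a transducer of that receptor, fell 1.92-fold. Cish, a feedback inhibitor induced by STAT5, rose from 542.1, 690.8 and 596.9 to 6443.9 and 5718.3, 9.55-fold (log2 3.26 ± 0.18 SE, limma adjusted p = 7.89e-12). Other STAT targets rose too, the kinase Pim1 2.96-fold, Socs3 2.87-fold and Socs2 2.11-fold, while Dusp6, induced by the ERK pathway, fell 2.66-fold. Over the 22 genes of this list 5 rose and 5 fell, with a median of -0.19 that was 0.07 with arrays centred on their median. The share of falls was near that of all genes tested (22.8%), of which 15.3% rose.

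Genes of late erythroid clearance and enucleation rose most broadly among the erythroid lists, 18 of 26 against 1 that fell, the histone methyltransferase Kmt5a, with a median of 0.93. Sqstm1, the receptor that hands ubiquitinated cargo to autophagy, gave 3289.8, 2922.4 and 2887.2 at 0 h and 10434.5 and 12949.7 at 24 h (log2 1.93 ± 0.18 SE, limma adjusted p = 2.06e-08). Ube2h and Ube2o, ubiquitin enzymes of maturing reticulocytes, rose 3.27-fold and 2.32-fold, Ypel3 3.29-fold and the autophagy gene Gabarapl1 2.79-fold. Xpo7, a nuclear exporter needed for chromatin condensation, did not pass, at 23957, 21617.2 and 25546.2 against 29519.6 and 26678.8 (limma adjusted p = 0.452). Sqstm1 also counts among the NRF2 genes. Without replicate 1 of 24 h 14 rose and after quantile normalization 15. The summed hepatocyte signal, 2.36% of its 0 h mean at 24 h, moved with all of these erythroid values, and its part in them was not tested.

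The p53 targets rose broadly and by large steps. Of 26 tested 15 rose and 2 fell, with a median of 1.12. Cdkn1a, the p21 inhibitor of cyclin-dependent kinases, gave 198.3, 204.6 and 206.5 at 0 h and 11913.7 and 13813 at 24 h, 54.7-fold higher (log2 5.77 ± 0.26 SE, limma adjusted p = 4.80e-13). Trp53inp1 rose from 444.8, 440.2 and 413.8 to 7000 and 8047.1, 16.2-fold (log2 4.02 ± 0.19 SE, limma adjusted p = 5.07e-13). Ccng1, cyclin G1, rose 12.3-fold, from between 718.7 and 894.7 to 9408.3 and 10857.5. The spread within either time was small beside these steps.

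Further p53 targets rose with them. Sesn2, a sensor of stress and leucine, rose 20.5-fold, the death effector Bbc3 6.09-fold, the arrest gene Gadd45a 5.27-fold and Mdm2, the ligase that limits p53 itself, 4.30-fold. The 2 that fell were the membrane protein gene Perp and cyclin D1, Ccnd1, from 1462.7, 1685.1 and 1219.9 to 474 and 333.5. Sesn2 belongs to the ATF4 list as well.

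Among genes of ATF4 and the unfolded protein response rises outnumbered falls. Of 32 tested 15 rose and 7 fell, with a median of 0.33. Trib3, a pseudokinase induced by ATF4, gave 105.3, 177.8 and 159.3 at 0 h and 8655.2 and 6991.6 at 24 h, 44.2-fold higher (log2 5.47 ± 0.32 SE, limma adjusted p = 1.62e-11). Ddit3, the factor CHOP, rose from 747.9, 561 and 770.9 to 9532 and 9183.1, 13.1-fold (log2 3.71 ± 0.17 SE, limma adjusted p = 5.07e-13). Chac1, which degrades glutathione, rose 8.62-fold, Nupr1 11.7-fold, the translation inhibitor Eif4ebp1 4.30-fold, Atf4 2.78-fold and asparagine synthetase, Asns, 2.32-fold. Chac1 and Nupr1 are the genes whose ATF4 letters are printed above, and Nupr1, like Rsad2, Gclm and Sod1, was named after its values were seen.

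In the same list Hspa5, the BiP chaperone and the usual readout of ATF6, gave 21488, 17465.5 and 25450.5 at 0 h and 25120.9 and 26231.5 at 24 h (log2 0.27 ± 0.22 SE, limma adjusted p = 0.339). The times overlapped. Creld2, another gene of that branch, fell from between 1985 and 2149.9 to 809.5 and 892.5 (log2 -1.26 ± 0.14 SE, limma adjusted p = 3.05e-07). Hepatocytes are rich in this secretory machinery, and the part of their fall in these values was not tested.

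Among NRF2 and antioxidant genes 17 of 27 rose and 5 fell, with a median of 0.86. Srxn1, which repairs oxidised peroxiredoxins, gave 404.5, 601.6 and 440.5 at 0 h and 3681.7 and 3259 at 24 h, 6.89-fold higher (log2 2.78 ± 0.27 SE, limma adjusted p = 2.99e-08). The quinone reductase Nqo1 rose 4.68-fold, the cystine importer Slc7a11 5.03-fold from signals of at most 33.2, and Taldo1 of the pentose phosphate pathway 2.54-fold. Gclm, a subunit of the enzyme that starts glutathione synthesis, rose 2.14-fold and Sod1, superoxide dismutase, 1.73-fold. The named falls were glutathione transferases abundant in liver, Gsta3 11.4-fold and Gstm1 3.14-fold. After quantile normalization 11 rose, and without replicate 1 or 2 of 24 h 11 and 12.

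Of the heat shock genes 6 of 14 rose and 1, the mitochondrial chaperone Hspd1, fell, with a median of 0.39. Hsp90aa1 rose from 12623.2, 13606 and 15308.5 to 23455.1 and 30280.9 (log2 0.95 ± 0.22 SE, limma adjusted p = 0.00150). Hspa1a and Hspa1b, near-identical copies of the inducible HSP70 whose probe sets may read both, rose by 2.07 and 1.84. Of 14 members, 12 were higher in replicate 2 of 24 h.

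Of 24 hypoxia targets 4 rose and 5 fell, shares near those of all genes tested (15.3% and 22.8%), with a median of -0.08 that was 0.18 with arrays centred on their median, where 8 rose. Vegfa and Egln3, often used as readouts of HIF, did not pass, at -0.52 ± 0.32 (SE, limma adjusted p = 0.218) and 0.15 ± 0.25 (SE, limma adjusted p = 0.660). Selenbp1 fell by 2.49 on the log2 scale, Ndrg1 3.72-fold and the kinase Pdk1 3.04-fold, while the repressor Mxi1 rose 1.88-fold.

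Among glycolytic genes 8 of 19 fell and 2 rose, with a median of -0.11 that was 0.15 with arrays centred on their median. Slc16a1, a lactate transporter of erythroblasts and other cells, gave 17082.4, 16144.6 and 18962.3 at 0 h and 5344.5 and 4975.7 at 24 h, 3.35-fold lower (log2 -1.74 ± 0.17 SE, limma adjusted p = 3.28e-08). Tpi1 fell 1.98-fold, Ldha 1.79-fold and a second lactate transporter, Slc16a3, 3.36-fold, and Pfkp rose 2.08-fold. Without replicate 1 of 24 h 4 fell.

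Among cholesterol synthesis genes 7 of 20 fell and 1 rose, with a median of -0.42. Dhcr7, a late enzyme of the pathway, gave 3538.1, 3029.9 and 2471.7 at 0 h and 186.1 and 131.6 at 24 h, 15.95-fold lower (SE 0.37 on the log2 scale, limma adjusted p = 1.47e-08). Sc5d fell 2.94-fold, whereas Idi1, an earlier enzyme, rose 2.11-fold, and Sqle and Insig1 did not pass. Liver parenchyma is a main site of this pathway, and its part in these falls was not tested.

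Interferon response genes formed the list with the highest median rise, 1.99, with 20 of 27 higher and none lower. Ifit1, which binds foreign RNA caps, gave 39, 17.6 and 22.4 at 0 h and 2436 and 8210.1 at 24 h, 78.2-fold higher (log2 6.29 ± 0.40 SE, limma adjusted p = 5.56e-11), the largest rise of all genes tested on the log2(signal + 32) scale. With signals this low at 0 h the added 32 sets the order of such folds. Usp18, a brake on the interferon receptor, rose from 307.3, 315.1 and 330.4 to 3440.3 and 11258.8, 17.9-fold (log2 4.16 ± 0.36 SE, limma adjusted p = 6.70e-09). Irf7, the factor that amplifies the response, rose 11.9-fold, the RNA sensor Ifih1 12.3-fold, Oasl2 18.7-fold, Irf9 5.62-fold and Ifi35 5.81-fold. Rsad2, the antiviral enzyme viperin, rose 6.75-fold.

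The size of the interferon rise differed between the 2 arrays of 24 h. Of 27 members 25 were higher in replicate 2, and the mean level of the list was 10.73 there against 9.81 in replicate 1, on the log2(signal + 32) scale. Both lay above all arrays of 0 h, as the plot of list levels shows. Over all genes tested the replicates were even, with 5451 higher in replicate 1 and 5457 in replicate 2. Without replicate 2, 15 members rose, and without replicate 1, 22. Replicate 2 also had the higher value in 25 of 26 ribosomal protein genes and replicate 1 in 22 of 23 pan-macrophage markers, and the part of these differences in the interferon values was not tested.

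Inflammatory genes rose in part. Of 25 cytokine and NF-kB feedback genes 11 rose and 3 fell, with a median of 0.81, and of 20 chemokine genes and receptors 10 rose and 3 fell, with a median of 0.77. Acod1, which makes itaconate in activated macrophages, gave 3.8, 7.5 and 4.1 at 0 h and 2350.1 and 1844 at 24 h, 57.0-fold higher (log2 5.83 ± 0.33 SE, limma adjusted p = 7.89e-12). Relb, a subunit of NF-kB, rose from 6.7, 68.3 and 10.1 to 1228.6 and 838.7, 19.2-fold. Nfkbia, the inhibitor that NF-kB induces, rose 3.97-fold and the acute phase protein Saa3 8.23-fold.

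The cytokine Il1b rose from signals between 108.5 and 110.6 to 324.4 and 338.1, and Tnf gave 12.8, 10.4 and 5.6 against 89.1 and 10.3 (limma adjusted p = 0.335). Il6 lay below the filter and was not tested, at 7.1, 2.3 and 7.6 against 139.7 and 119.4. Icam1, an adhesion molecule shared with endothelium, fell 2.70-fold. Among chemokines Ccl3 gave 43.6, 8.2 and 2.9 at 0 h and 816.9 and 753.4 at 24 h, 17.2-fold higher (log2 4.11 ± 0.45 SE, limma adjusted p = 1.80e-07). Ccl5 was 15.1-fold higher, Cxcl3 7.73-fold and Ccl2 6.42-fold, all from 0 h signals at or below 28.1. Ackr3, a scavenger receptor for Cxcl12, rose from 317.4, 251.6 and 157 to 3957.4 and 3942.4 while Cxcl12 itself fell, as given above.

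Among immediate early genes 10 of 19 rose and 2 fell, with a median of 0.60. Fos gave 136.2, 118.9 and 212.6 at 0 h and 2345.7 and 1208.3 at 24 h, 9.34-fold higher (log2 3.22 ± 0.30 SE, limma adjusted p = 1.51e-08). Its partner Jun rose 8.03-fold, Jund 7.72-fold, Atf3 6.86-fold and the mRNA decay factor Zfp36 4.24-fold. Egr1 did not pass, at 1221.6, 994.8 and 733 against 1335.4 and 1625.5 (log2 0.60 ± 0.27 SE, limma adjusted p = 0.0870). Ier3 fell 2.56-fold and Myc 1.63-fold.

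Targets of SRF and genes of the actin cytoskeleton fell in 13 of 26 cases and rose in 4, with a median of -0.70, and 7 fell without replicate 2 of 24 h. Smooth muscle genes led the falls, the myosin light chain Myl9 from between 505.3 and 660.9 to 46.4 and 7.4, the actin binder Cald1 6.69-fold and Acta2 3.83-fold. Anxa1, an annexin of myeloid cells, rose 3.17-fold and cytoplasmic actin, Actb, 1.87-fold, the latter a call that was not kept after quantile normalization. Several of the fallen genes are products of stromal cells, whose markers fell in 31 of 33 cases, and the part of those cells was not tested.

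Proliferation genes had small median changes, and in the mitotic list rises outnumbered falls. Among the E2F targets of G1/S 8 of 51 rose, near the 15.3% of all genes, and 4 fell, with a median of 0.11 that was -0.05 after quantile normalization, and in the G2/M and mitosis list 14 of 51 rose and 2 fell, Anln and Bora, with a median of 0.28. The kinases Cdk1 and Plk1 and the helicase subunit Mcm2 did not pass, at 0.06 ± 0.14, 0.24 ± 0.24 and 0.12 ± 0.24 (SE). Cdk1 gave 6355.7, 6440.9 and 6863.8 at 0 h and 7328.1 and 6364.6 at 24 h, so the times overlapped. Cenpe, a kinetochore motor, rose from 366.2, 466.7 and 414.8 to 1768.6 and 1565.8, 3.80-fold (log2 1.93 ± 0.39 SE, limma adjusted p = 0.000411), and cyclin E2, Ccne2, rose 2.14-fold. Tyms, which makes thymidylate, fell 2.56-fold. The counts of rises moved with the scaling and the array: for the E2F list they were 4 after quantile normalization or without either 24 h array, 5 without replicate 2 of 0 h and 20 with arrays centred on their median, and for the mitotic list 9 and 27 under those scalings and 4 without replicate 1.

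Of the CDK inhibitors and quiescence genes 9 of 21 rose and 2 fell, with a median of 0.54. Beside Cdkn1a, Cdkn2b rose from signals of 25, 13 and 13.8 to 342.5 and 559, 9.61-fold, and Cdkn1b, the p27 inhibitor, 1.88-fold. Cdkn2d, a further inhibitor of the cyclin D kinases, did not pass (limma adjusted p = 0.0938), and Gas1 fell by 2.74. The pocket protein genes, which restrain E2F, did not pass. Rb1 gave 6143.8, 6578.9 and 7105.4 at 0 h and 10308.7 and 8589.1 at 24 h (log2 0.51 ± 0.22 SE, limma adjusted p = 0.0722). The arrays did not overlap for Rb1, as for 66% of all genes tested. Rbl1 gave 1570.9, 1541 and 1745.5 against 1583.1 and 1272.7 (limma adjusted p = 0.590), and Rbl2 gave 464, 484.7 and 379.3 against 418.4 and 400 (limma adjusted p = 0.831).

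Of 20 cell death genes 3 rose and 4 fell, shares near those of all genes tested (15.3% and 22.8%), with a median of -0.18 that was 0.13 after quantile normalization. Fasl, the Fas ligand, rose from 21.1, 29.3 and 20.3 to 849.5 and 598.5, 13.5-fold (log2 3.75 ± 0.37 SE, limma adjusted p = 4.39e-08). Bcl2 fell 2.82-fold and the death effector Bcl2l11 1.96-fold. Mcl1, a short-lived survival protein, was level at 8208.3, 7992.8 and 8097.3 against 8981.8 and 7203.1 (log2 -0.01 ± 0.15 SE, limma adjusted p = 0.967).

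Ribosome biogenesis and the ribosome itself moved apart. Of 31 MYC and ribosome biogenesis genes 3 rose and 10 fell, with a median of -0.32, whereas 19 of 26 cytosolic ribosomal proteins rose and 2 fell, with a median of 0.71. Polr1b, a subunit of the polymerase that makes ribosomal RNA, fell from 1139, 977 and 1036.2 to 277.9 and 528.5, 2.59-fold, and Myc fell by 0.71. Rps19, whose loss causes anaemia, gave 15810.9, 16321.1 and 17297.3 at 0 h and 26846.9 and 31561 at 24 h, 1.77-fold higher (log2 0.82 ± 0.19 SE, limma adjusted p = 0.00178). Rpl12 went the other way, 6.88-fold lower, and so did Rps25.

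These shifts rested on scaling and on single arrays. After quantile normalization 1 ribosomal protein rose and the median was 0.07, without replicate 2 of 24 h 3 rose, and with the mean over the probe sets of a gene 12 rose. For the biogenesis genes 2 fell without replicate 1 of 24 h and 6 with arrays centred on their median. Oxidative phosphorylation genes rose less than the ribosomal proteins and also depended on scaling. Of 37 genes 9 were higher and 2 lower, where 15.3% of all genes tested rose and 22.8% fell. Their median was 0.31 and became -0.03 after quantile normalization, where 1 rose. Without replicate 2 of 24 h 1 rose as well, without replicate 1 5 did, without replicate 1 or 2 of 0 h 4 and 3, and with arrays centred on their median 23. Cox5b, a subunit of cytochrome oxidase, rose by 0.75 and cytochrome c, Cycs, by 0.70.

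**Figure D4:**
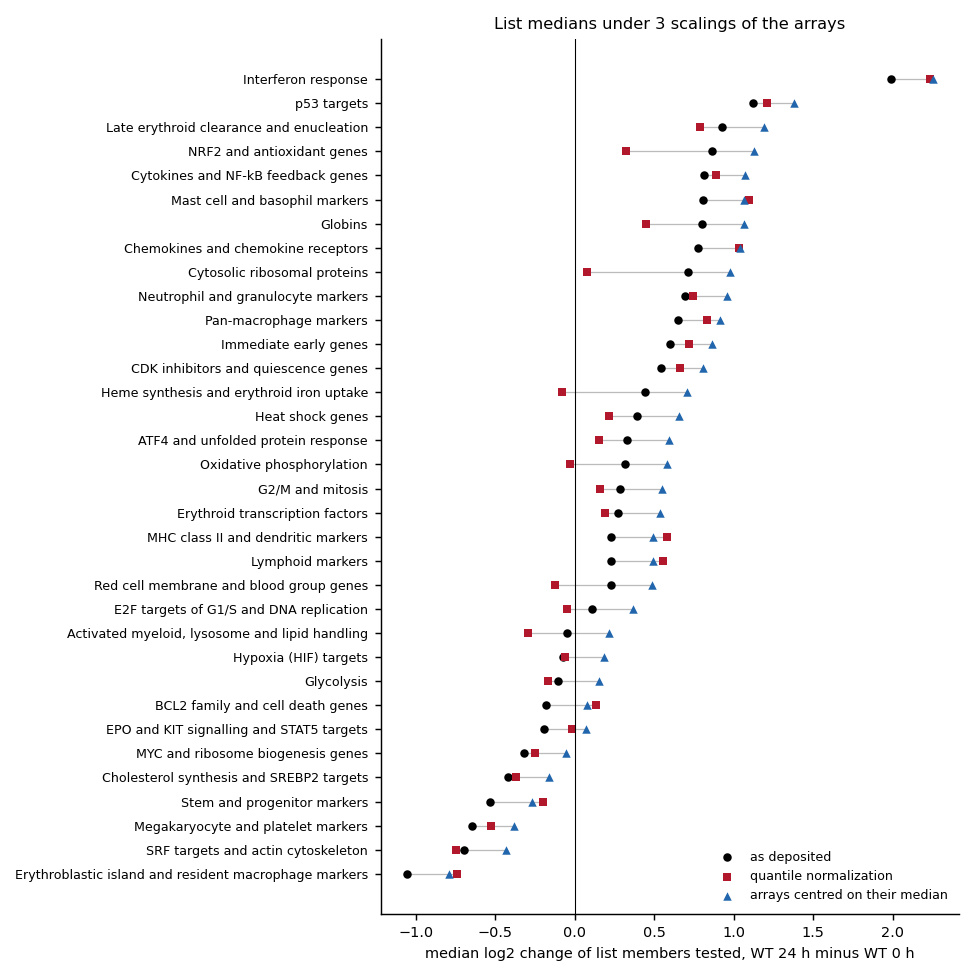
Median log2 change of the tested members of each list from WT 0 h to WT 24 h, as deposited (black circles), after quantile normalization (red squares) and with arrays centred on their median (blue triangles); the 4 lists with the lowest medians and the largest falls lie beyond the axis and are left out. The medians of heme, red cell membrane, oxidative phosphorylation and E2F genes lie on both sides of 0, while interferon, p53, clearance and resident macrophage genes keep their side.

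The rule also named genes of large rise that no list held. Clec4d, a lectin receptor of myeloid cells, gave 97.7, 95.5 and 127.5 at 0 h and 4846.5 and 3192.2 at 24 h, 28.7-fold higher (log2 4.84 ± 0.37 SE, limma adjusted p = 7.92e-10). Ptpn14, a tyrosine phosphatase induced by p53 in other settings, rose 24.8-fold, from 75.8, 36.4 and 14.6 to 1189.4 and 2438. Gda, guanine deaminase, rose 18.5-fold and Resf1, a repressor of retroviral elements, 17.8-fold. The transcripts 3110040M04Rik and 5031425E22Rik and the genes Zfp958 and Gm9706 rose between 15.4-fold and 19.4-fold.

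The same 24 h were then compared with those of the knockouts, on separate arrays. In Rb1KO 5696 genes changed (52.2% of those tested), and 3508 were shared with WT, which is 84.4% of the WT calls and 61.6% of the Rb1KO calls. Of the shared genes 3495 changed in the same direction and 13 in opposite directions. In p107KO 3198 genes changed (29.3%), and 2738 were shared, 65.9% of the WT calls and 85.6% of the p107KO calls, all in the same direction. Some lists had medians of the same sign in the 3 genotypes. Hepatocyte markers had medians of -6.40, -6.31 and -5.82 in WT, Rb1KO and p107KO, interferon genes 1.99, 2.57 and 2.25, p53 targets 1.12, 1.25 and 0.93, and clearance genes 0.93, 0.65 and 0.74. Counts or medians of further lists are given below, and the difference between genotypes was not tested for any list. Of all genes tested 15.3%, 20.7% and 11.8% rose in WT, Rb1KO and p107KO, and 22.8%, 31.5% and 17.5% fell. E2F targets had 8, 27 and 3 rises of 51 in WT, Rb1KO and p107KO, and G2/M genes had 14, 32 and 6 of 51. MYC and ribosome biogenesis genes had 10, 20 and 1 falls of 31, with medians of -0.32, -0.71 and -0.18. EPO, KIT and STAT5 genes had medians of -0.19, -0.01 and 0.04. The numbers of arrays differ between the genotypes, and counts of calls move with them.

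**Figure D5:**
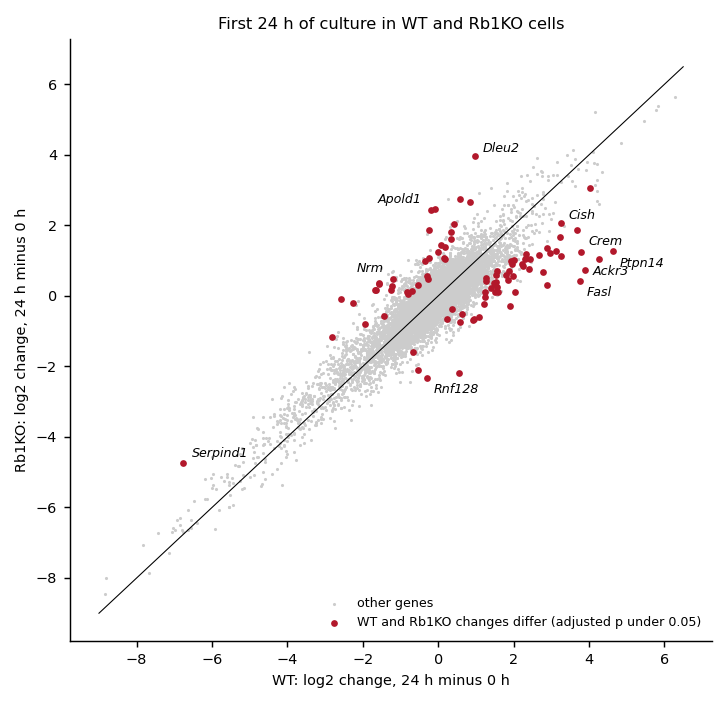
Log2 change from 0 h to 24 h in WT (horizontal axis) and in Rb1KO (vertical axis) for 10916 genes, with the line of equal change. Red points are the 91 genes whose changes differed at an adjusted p under 0.05. In 49 of them WT rose by more than the size of the Rb1KO change in either direction. These lie below the line on the right.

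The change differed between WT and Rb1KO for 91 genes (0.834% of those tested, limma interaction at an adjusted p under 0.05). In 49 of them WT rose by more than the size of the Rb1KO change in either direction. In 30 of the 91 the changes had opposite signs. The count was lower without any single WT array, at 50, 53 and 55 without replicate 1, 2 or 3 of 0 h and at 53 and 49 without replicate 1 or 2 of 24 h. It was 56 with only the compared arrays in the fit and 31 with replicate number as a block. It was 194 with array weights and 165 without 4 arrays of low correlation to others of their time, a choice made after seeing the data. Crem, a factor of cyclic AMP signalling, rose by 3.80 in WT and by 1.25 in Rb1KO, a difference of 2.55 ± 0.30 (SE, limma adjusted p = 5.90e-05). Ptpn14 rose by 4.63 and 1.28, Ackr3 by 3.91 and 0.75, and 3110040M04Rik by 4.28 and 1.05. In Rb1KO at 24 h Ptpn14 lay between 201.5 and 282.4 against 1189.4 and 2438 in WT. Ptpn14 was named in part by this same test, so these signals are no further evidence.

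In further genes of the 91 the changes differed in other ways. Dleu2, the host transcript of a microRNA cluster, rose by 0.98 in WT and by 3.97 in Rb1KO, a difference of -2.99 ± 0.30 (SE, limma adjusted p = 6.02e-06). Its probe sets disagree: another one had a mean of 533 at 0 h and 254 at 24 h in WT, a change of -0.996. Apold1, an endothelial early gene, gave -0.08 in WT and 2.48 in Rb1KO. Nrm, a protein of the nuclear envelope, gave changes of opposite sign, -1.19 in WT and 0.47 in Rb1KO, and Rnf128, a ubiquitin ligase, -0.30 and -2.33. Among the genes of the lists, the WT rise was larger for Fasl (3.75 against 0.42), Cdkn2b (3.26 against 1.13), Cish (3.26 against 2.07), Csf2rb (2.34 against 1.19), Fos (3.22 against 1.66) and Nfkbia (1.99 against 0.57). For Fos the genotypes stood apart at 0 h, with mean signals of 155.9 in WT and 549.6 in Rb1KO. At 24 h its means were close, at 1777 and 1830.

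Between WT and p107KO no gene had a different change in limma (0% of those tested), while 317 had an unadjusted p under 0.05. The smallest adjusted p was 0.387, for Dennd6b, at 289.6, 303.1 and 200 against 60.3 and 60.9 in WT, and gave 0.33 in p107KO. With 2 arrays at either time of p107KO, this does not show that the responses were alike. The difference between WT and p107KO in Dennd6b was -1.99 ± 0.39 (SE).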

How the data were processed

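Total RNA of WT foetal liver cells at 0 h (3 samples) and 24 h (2 samples) was hybridized to Affymetrix Mouse Genome 430 2.0 arrays. The deposited values are linear signal intensities that the authors made with MAS5 in GCOS 1.4, per the submitters' processing notes. They were scaled by the authors to a common level: trimmed by 2% at each end, array means ran from 491.9 to 497.7. Equal scaling leaves the rest of each distribution free, so small shifts of whole lists depend on it. Detection calls were not used here. Arrays carry no read depth; how many there are sets the precision.

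Of 45037 probe sets, 34945 had 1 symbol in the platform annotation, 932 had several and 9160 were unnamed there; the first kind was used, with symbols updated through Entrez identifiers to GRCm38.p6 (34741 matched). The probe set with the highest mean stood for a gene, which gave 18193 genes, and the lowest 40% were left out. Values were log2(signal + 32). In limma 3.58.1 (R 4.3.3), 1 mean per genotype and time was fitted to all 27 arrays with a variance prior that follows brightness (15 residual and 7.14 prior degrees of freedom). Tests were two-sided with Benjamini-Hochberg adjustment over 10916 genes, and SE comes from this fit. The differences from Rb1KO and p107KO were interaction terms.

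The members and the 38 gene lists were chosen with earlier results of these data known, and no set test was made. Named genes were the 20 largest rises and falls among called, non-overlapping genes above the median level (677.3), the defining members of each list and up to 4 more with the smallest adjusted p, Rb1, Rbl1, Rbl2, and 8 genes per interaction. Rsad2, Nupr1, Gclm, Sod1, Cstb, Marco, Fcgr2b, Plek, Kmt5a, Perp, Hspd1, Anln, Bora, Rps25, Il6, Cma1, Tpsb2, Mcpt1, Mcpt2 and Mcpt4 were named after their values were seen. On simulated data 57% of genes changed 2-fold and 97% of those changed 4-fold were recovered for WT 24 h against 0 h (100 of each among 10916). For the difference between WT and Rb1KO the same rates were 38% and 87%. Far more genes were called in the data (4156 for WT), so these rates need not hold there. Probe sets of one gene moved in opposite directions for Bub3, Cald1, Ccne1, Cd8a, Dleu2, Higd1a, Hmmr, Hspa8, Rps18, Slc4a1, Socs2 and Top2a. Alternatives were pseudocounts of 1 and 100, no filter or one at 60%, quantile normalization, centring on the median, the mean over probe sets, array weights, the compared arrays only, a replicate block, and each array left out in turn. Tables and figures were made with Python 3.11.15 and matplotlib 3.10.9.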

Additional observations from a re-analysis of the deposited data

Results flagged for a closer look

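The step from 0 h to 24 h differed between WT and Rb1KO cells in 91 genes, by a limma interaction test at an adjusted p under 0.05. Differences are given as the WT change minus the Rb1KO change on the log2 scale. Where the WT change was the higher, the difference was 3.22 for 3110040M04Rik, 2.03 for Rnf128, 2.55 for Crem, 3.36 for Ptpn14, 3.16 for Ackr3 and 3.33 for Fasl. Smaller differences in the same direction were found for Cish (1.19), Pim1 (0.86), Csf2rb (1.14), Csf2rb2 (1.52), Cdkn2b (2.14), Fos (1.56), Nfkbia (1.42), Sqstm1 (0.93) and Trp53inp1 (0.96). Fos and Trp53inp1 had a higher mean signal in Rb1KO than in WT already at 0 h. For Trp53inp1 the means were 432.9 in WT and 1225 in Rb1KO at 0 h, and 7524 and 10470 at 24 h. In the other direction the difference was -2.99 for Dleu2, -2.56 for Apold1, -1.66 for Nrm, -2.05 for Serpind1, -1.82 for Dennd6b and -1.95 for Dis3l.

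A single array stood apart from the rest of its group for Dleu2, at 9.91 on the log2(signal + 32) scale in Rb1KO at 0 h, and for Rnf128, at 8.59 in Rb1KO at 24 h. Chance sets such an array apart in about 1 in 20 groups.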

How the results depend on the processing

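The 4156 calls of WT 24 h against 0 h ran from 2911 to 3805 when arrays were left out one at a time (rises 1096 to 1504, falls 1815 to 2301), and 67.6% to 89.1% of the calls were kept with their direction. With arrays centred on their median 2787 genes rose, and with 60% of genes filtered 1532 fell; quantile normalization kept 76.7% of the calls and gave 26 the other sign. The 91 genes that differed between WT and Rb1KO became 49 to 104 with an array left out, 194 with array weights, 56 with only the compared arrays, 165 without 4 arrays of low correlation (chosen after seeing the data) and 31 with the replicate block. Between WT and p107KO the count was 0 under every alternative run. Directions turned after quantile normalization for Glrx5 (-0.0576), Hspa8 (-0.0462), Odc1 (-0.0617), Pcna (-0.0935) and Slc4a1 (-0.0604), and with the mean over probe sets for Bub3 (-0.381), Ccne1 (0.00966), Hspa8 (-0.364), Rps18 (-0.186) and Top2a (-0.139); the cause was not tested. Whether the replicate numbers pair the WT arrays is not settled here. Deviations of arrays with the same number correlated at 0.042 and -0.029 across genes. With 2 arrays at 24 h their deviations mirror each other, so these correlations cannot decide it. The replicate block gave 3736 calls, 1469 higher and 2267 lower. Levels close to background limit the folds of genes such as Apoa1 at 24 h and Ifit1 at 0 h, which the added 32 makes smaller.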
